A study of Mus musculus with 42 samples.

Results

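The 31 genes described here make, sense and move cholesterol. They were taken as a list of gene symbols and matched to Ensembl identifiers among the 54232 genes of the deposited tables, and all 31 were found. Of these, 18 encode enzymes of sterol synthesis, 5 belong to the sterol sensor and its transcription factors, and 8 act in uptake, efflux, trafficking and turnover. All 31 passed the filter on low counts, and the lowest count of any of them in any library was 12.

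Brain makes nearly all of its own cholesterol, because lipoprotein cholesterol of the blood does not cross the blood-brain barrier. Synthesis runs from acetyl-CoA through mevalonate and farnesyl pyrophosphate to squalene, lanosterol and cholesterol. When sterol in the endoplasmic reticulum is low, Scap escorts the SREBP proteins to the Golgi, where they are cut and released to switch on synthesis genes, and the Insig proteins hold this step back when sterol is high. Liver X receptors sense oxysterols and raise the efflux pumps Abca1 and Abcg1, and neurons clear cholesterol by hydroxylating it through Cyp46a1.

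The 42 mouse libraries of messenger RNA comprised 20 labelled cerebellum, with 5 in each of 4 groups, and 22 labelled hippocampus. For 12 weeks mice ate a control chow of 11% fat or a western diet of 42% fat, with or without NaKtide, a peptide derived from the Na,K-ATPase that blocks its signalling through Src, expressed from a transgene induced by doxycycline at 300 mg/kg of diet. The hippocampus groups held 6 control, 5 control NaKtide, 5 western and 6 western NaKtide libraries. The labels do not say whether mice without NaKtide received doxycycline or whether each library is a separate animal, so p-values measure the spread between these libraries, which may be technical. The sources used here do not give the promoter that drives the transgene, the strain or the age of the mice. The design text of the series describes other tissues, and each library's own labels were followed here.

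Library totals ran from 4669374 to 9521002 counts, with a median of 6673685. Gabra6, which marks cerebellar granule cells, was under 1 CPM (counts scaled to a common library size) in 15 of 20 libraries labelled cerebellum and in 21 of 22 labelled hippocampus, so most libraries labelled cerebellum lacked this marker. Hippocampus and cerebellum below name the labels only. From earlier results on these data, 4 libraries had been set apart by the level of Xist, the RNA of the inactive X chromosome (hippocampus control 5 and 6, hippocampus western NaKtide 6 and cerebellum western NaKtide 5), and hippocampus control 5 and 6 may be 1 sample. Calls of members that change without these 4 are given both ways.

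Promoter sequences are shown because the synthesis genes are known to share control by SREBP, with NF-Y as a partner. A RefSeq table (GRCm38.p6, 250 bases before to 50 after the start) held 34 promoters of 26 of the 31 genes, and Fdps, Fdft1, Sqle, Npc1 and Abcg1 had no entry. The sterol element TCACNCCAC, searched on both strands, was found in Hmgcs1 alone of these 26 genes, against 1.24% of 32851 promoters in the table. CCAAT, the NF-Y motif, was in 64.7% of the 34 promoters and in 37.4% of the table, and GGGCGG, the Sp1 motif, in 82.4% and 35.7%. A match is a string of letters and not a measured site. Only exact matches were searched, so a gene without one may still hold a variant of the element. Hmgcs1 is shown as the one with an exact match to TCACNCCAC. Hsd17b7 and Pmvk, chosen after their values were seen, are those with the lowest and highest fold change for NaKtide on western diet. Capitals mark TCACNCCAC and CCAAT on either strand, with sequences 5′ to 3′ along the gene, at chr13:119690101-119690400 (plus strand), chr1:169969156-169969455 (minus strand) and chr3:89454291-89454590 (plus strand). Pmvk has a second entry, starting at 89459321, with none of the 3 motifs, which is not printed.
Hmgcs1: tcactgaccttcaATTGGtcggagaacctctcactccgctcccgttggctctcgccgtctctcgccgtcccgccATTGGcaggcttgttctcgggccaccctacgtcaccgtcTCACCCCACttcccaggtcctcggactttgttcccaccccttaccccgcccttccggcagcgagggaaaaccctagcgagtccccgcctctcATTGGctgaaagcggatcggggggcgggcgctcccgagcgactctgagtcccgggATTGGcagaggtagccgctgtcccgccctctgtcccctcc
Hsd17b7: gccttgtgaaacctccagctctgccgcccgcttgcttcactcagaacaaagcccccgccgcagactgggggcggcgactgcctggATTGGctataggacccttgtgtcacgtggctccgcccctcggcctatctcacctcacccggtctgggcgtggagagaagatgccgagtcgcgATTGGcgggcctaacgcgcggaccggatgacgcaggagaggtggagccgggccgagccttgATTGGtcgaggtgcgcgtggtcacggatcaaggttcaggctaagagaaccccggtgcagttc
Pmvk: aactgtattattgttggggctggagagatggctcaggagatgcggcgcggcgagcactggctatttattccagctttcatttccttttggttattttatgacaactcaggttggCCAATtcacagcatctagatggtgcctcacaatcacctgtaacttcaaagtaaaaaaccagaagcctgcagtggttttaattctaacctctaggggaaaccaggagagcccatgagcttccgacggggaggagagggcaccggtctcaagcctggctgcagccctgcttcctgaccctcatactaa

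Of the 6 genes that rose for NaKtide on western diet in hippocampus, as described next, 5 held CCAAT in at least 1 entry, and of the 5 that fell and had a promoter entry, 4 did. Among the 15 others with an entry, 12 held it.

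NaKtide on western diet in hippocampus was the one comparison of groups within a label in which members were called, that is, had an adjusted p under 0.05 by edgeR's quasi-likelihood test with Benjamini-Hochberg adjustment over all genes. Of the 31 genes, 12 were called: Pmvk, Mvd, Tm7sf2, Nr1h2, Npc2 and Cyp46a1 rose, and Hmgcs1, Sqle, Hsd17b7, Sc5d, Insig2 and Abca1 fell. Of all 16442 genes tested, 33.7% were called, 17.4% higher and 16.3% lower, so the 38.7% among the members was near the background. The median log2 fold change was 0.07 over the members and 0.05 over all genes. Synthesis enzymes were split, with 3 higher and 4 lower of 18. Of the 5 SREBP genes 1 was lower, and of the 8 uptake and efflux genes 3 were higher and 1 was lower. In bulk tissue, fewer cells of a type and less RNA per cell cannot be told apart.

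**Figure D1:**
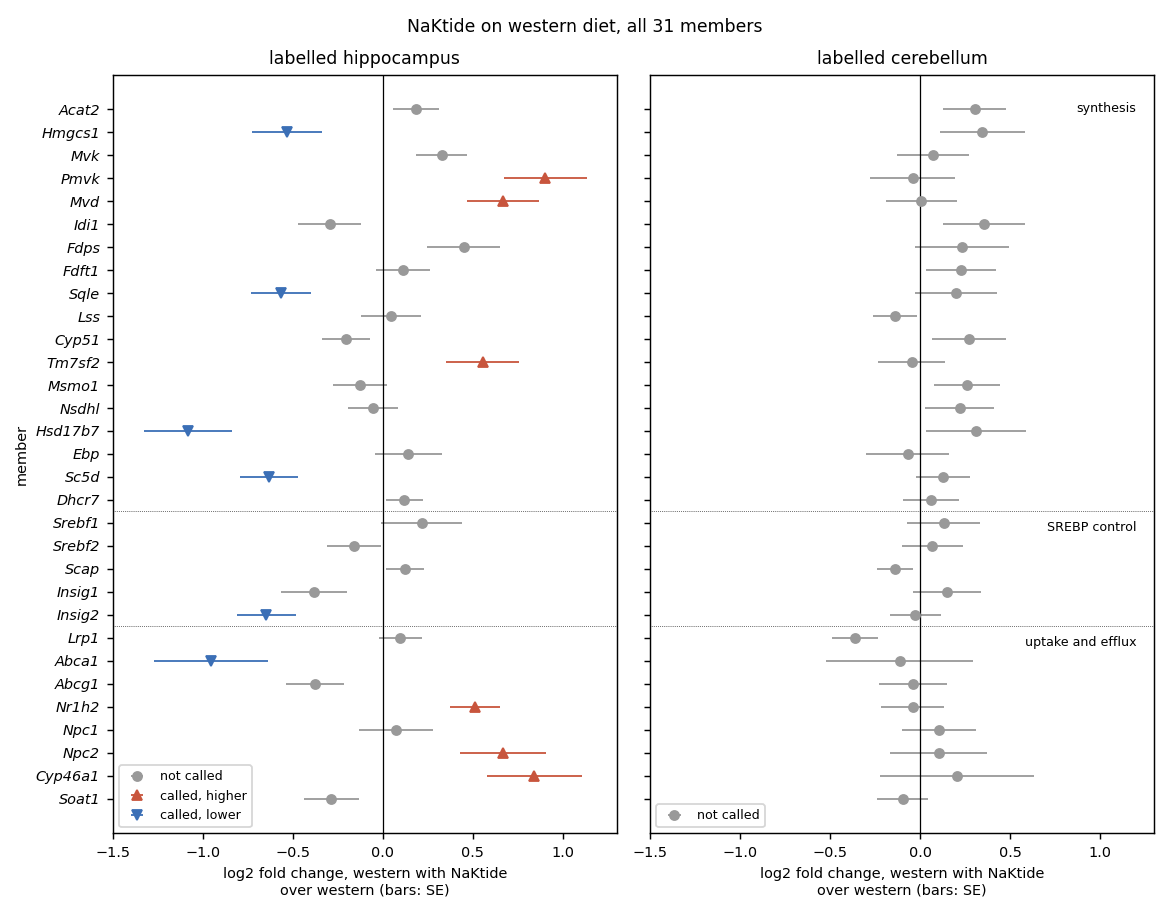
Log2 fold change of western NaKtide over western libraries (x axis; bars are SE) for the 31 members (y axis), in libraries labelled hippocampus (left) and cerebellum (right). In hippocampus 6 members were called higher (upward triangles) and 6 lower (downward triangles), and in cerebellum none was called.

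In the mevalonate segment, Hmgcs1 (chr13:119690379-119708260, GRCm38, GENCODE M21), which makes HMG-CoA, stood at 134, 179, 160, 145 and 125 CPM in the western libraries. With NaKtide the 6 libraries ran from 67.8 through a median of 110 to 123 CPM. All 6 lay below all 5 western libraries, and the log2 fold change was -0.53 (SE 0.19, adjusted p = 0.0396, edgeR).

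Pmvk (chr3:89454541-89469013), the phosphomevalonate kinase, moved the other way. Its western libraries held 53, 35.7, 35.3, 27.1 and 56.2 CPM, and the NaKtide libraries ran from 49.7 through 75.2 to 112 CPM. The log2 fold change was 0.90 (SE 0.23, adjusted p = 0.00719, edgeR), and 5 of 6 NaKtide libraries lay above every western one.

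Mvd (chr8:122433601-122443422), which decarboxylates mevalonate pyrophosphate, also rose. Western libraries held 22, 14.8, 17.1, 15.5 and 22.6 CPM, against 15.9 to 41 CPM with a median of 30.6 under NaKtide. Again 5 of 6 lay above all western libraries, and the log2 fold change was 0.67 (SE 0.20, adjusted p = 0.0159, edgeR).

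The other enzymes up to farnesyl pyrophosphate were not called. Their log2 fold changes were 0.18 for Acat2, the acetoacetyl-CoA thiolase, 0.33 for the mevalonate kinase Mvk, -0.30 for the isomerase Idi1 and 0.45 for the farnesyl pyrophosphate synthase Fdps.

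In the segment from squalene on, Sqle (chr15:59315077-59331192), the squalene epoxidase, held 50.4, 60.3, 53.7, 57.8 and 50.2 CPM in western libraries. NaKtide libraries ran from 22 through 38.7 to 46.7 CPM. The groups did not overlap, and the log2 fold change was -0.57 (SE 0.17, adjusted p = 0.0144, edgeR).

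Hsd17b7 (chr1:169949535-169969241), the keto-steroid reductase of the demethylation steps, had the lowest fold change of the members. Western libraries held 15.5, 16, 17.8, 17 and 8.56 CPM, and NaKtide libraries ran from 5.15 through 7.21 to 9.54 CPM. Western 5 lay inside the NaKtide range, while the other western libraries lay above it. The means were 15.0 ± 3.70 (SD, n = 5) and 7.15 ± 1.75 CPM (SD, n = 6), and the log2 fold change was -1.08 (SE 0.24, adjusted p = 0.00419, edgeR across all genes).

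Sc5d (chr9:42251595-42264256), the lathosterol desaturase, held 60.4, 56.8, 58.7, 58.6 and 57.3 CPM in western libraries. With NaKtide it ran from 30.4 through 36.7 to 51.3 CPM. The groups did not overlap, and the log2 fold change was -0.63 (SE 0.16, adjusted p = 0.00719, edgeR).

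Tm7sf2 (chr19:6062821-6068373), a sterol reductase, was the one enzyme after squalene that rose. Western libraries held 8.86, 15.2, 10, 10.5 and 13.4 CPM, against 10 to 21.5 CPM with a median of 17.7 under NaKtide. Of the 6 NaKtide libraries, 5 lay above all western ones, and the log2 fold change was 0.55 (SE 0.20, adjusted p = 0.0388, edgeR).

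Fdft1, the synthase that makes squalene, was not called (log2 fold change 0.11). After squalene, no call was made for the lanosterol synthase Lss (0.05) or the lanosterol demethylase Cyp51 (-0.20). Msmo1 (-0.13) and Nsdhl (-0.06), which remove the methyl groups, the isomerase Ebp (0.14) and the last reductase Dhcr7 (0.12) were not called either.

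Among the SREBP genes, Insig2 (chr1:121304353-121332589), which retains Scap in the endoplasmic reticulum, held 39.6, 31.3, 31.7, 41.1 and 42 CPM in western libraries. NaKtide libraries ran from 17.7 through 23.6 to 30.2 CPM. The groups did not overlap, and the log2 fold change was -0.65 (SE 0.17, adjusted p = 0.00723, edgeR). Insig1, its paralog, had -0.38 and was not called, and neither were Srebf1 (0.22) and Srebf2 (-0.16), which encode the SREBP factors, or Scap (0.12).

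Of the genes that move cholesterol out, Abca1 (chr4:53030787-53159895), which loads apolipoproteins, held 15.5, 21.4, 19.6, 17.1 and 11.6 CPM in western libraries and 4.65 to 11.2 CPM, median 10.2, with NaKtide. The groups did not overlap, and the log2 fold change was -0.96 (SE 0.32, adjusted p = 0.0247, edgeR). Abcg1, the partner pump, had -0.38 and was not called in this fit.

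Nr1h2 (chr7:44549616-44553951), the liver X receptor beta, rose. Western libraries held 38.6, 42.5, 45.5, 33.5 and 46.7 CPM, against 46.5 to 70.6 CPM with a median of 63.9. Of the 6 NaKtide libraries 5 lay above every western one, and the log2 fold change was 0.51 (SE 0.14, adjusted p = 0.0099, edgeR).

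Npc2 (chr12:84754562-84773152), which hands cholesterol over inside lysosomes, held 87.1, 60.2, 54.4, 57.2 and 92.7 CPM in western libraries and 75.8 to 168 CPM, median 106, with NaKtide. The groups overlapped, with 4 of 6 NaKtide libraries above all western ones, and the log2 fold change was 0.67 (SE 0.24, adjusted p = 0.035, edgeR).

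Cyp46a1 (chr12:108334381-108362234), the cholesterol hydroxylase of neurons, held 138, 196, 212, 122 and 134 CPM in western libraries. NaKtide libraries ran from 102 through 280 to 505 CPM, so 5 lay above all western libraries and 1 below them. The log2 fold change was 0.84 (SE 0.26, adjusted p = 0.0187, edgeR). Lrp1, a receptor for apolipoprotein E particles (0.10), Npc1, the lysosomal partner of Npc2 (0.07), and Soat1, which esterifies cholesterol (-0.29), were not called.

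**Figure D2:**
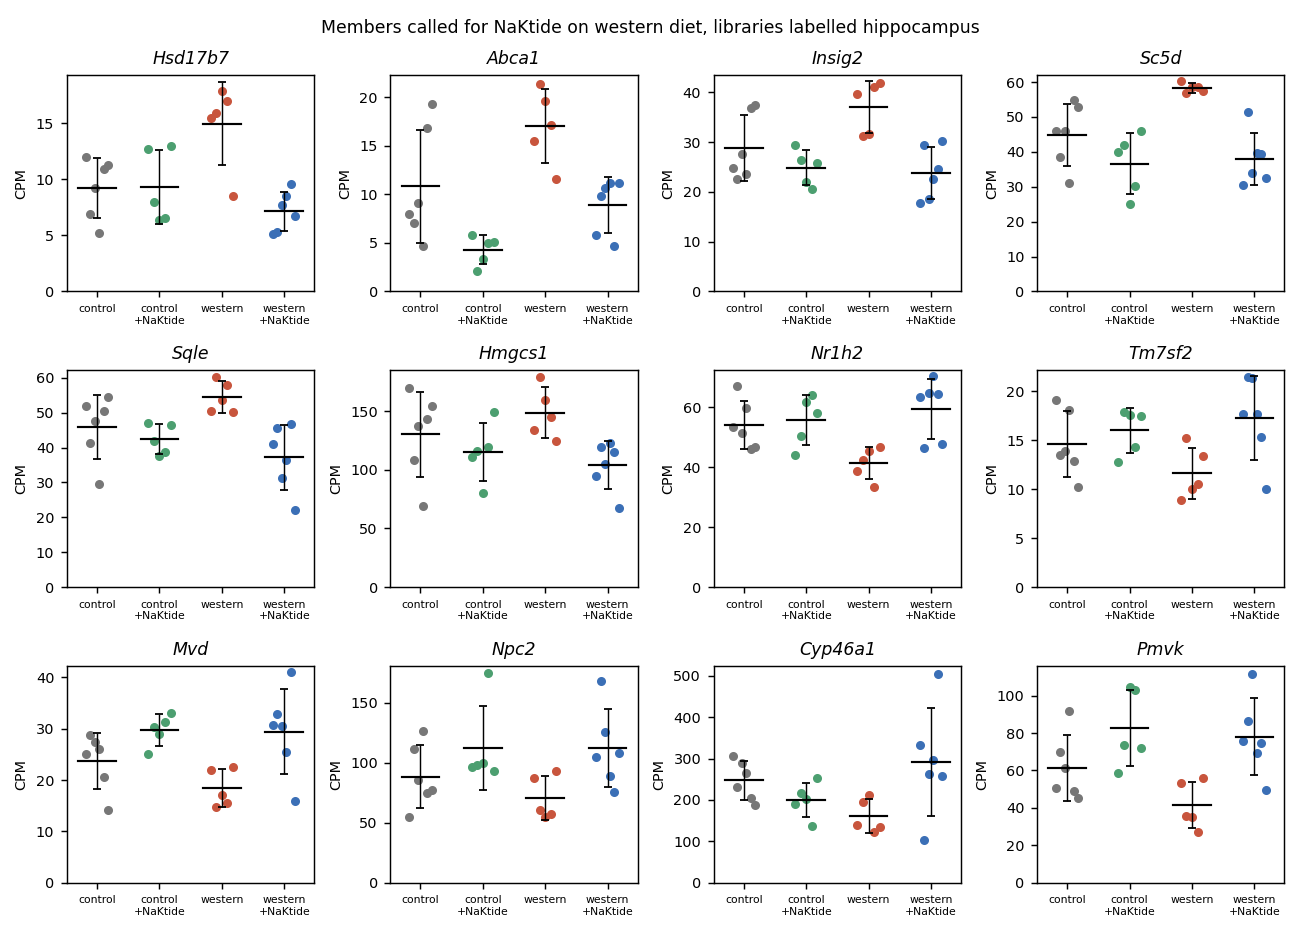
CPM (y axis, from 0) of the 12 called members in every library labelled hippocampus, by group (x axis); lines are means and bars SD. The western libraries stand above the western NaKtide libraries without overlap for Abca1, Insig2, Sc5d, Sqle and Hmgcs1.

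Groups did not overlap for 6 of the 31 members, all lower with NaKtide: Hmgcs1, Sqle, Sc5d, Insig2, Abca1 and Soat1, the last not called. Over all genes 12.8% did not overlap in this comparison. Hsd17b7, Pmvk, Sc5d, Insig2 and Nr1h2 stayed called in all 30 alternatives, and Sqle in all but the one with the length trend taken out. Leaving out 1 library ended the call of Mvd (western 2, adjusted p = 0.0512, edgeR), of Cyp46a1 (western 4 or western NaKtide 5, up to 0.0573) and of Abca1 (western 2 or 3 or western NaKtide 5, up to 0.0698). It ended that of Hmgcs1 without western 2, 3 or 4 or western NaKtide 1 or 6 (up to 0.103), and of Npc2 without western 2, 3 or 4 or western NaKtide 1, 2 or 3 (up to 0.0958). Tm7sf2 lost its call with the compared groups only, with no low-count filter (adjusted p = 0.077 and 0.0749, edgeR), and without western 1, 3 or 4, western NaKtide 1, 2, 3 or 4, or control NaKtide 4 (up to 0.102). Without western NaKtide 6, Abcg1 (log2 fold change -0.58, adjusted p = 0.00299) and Fdps (0.54, adjusted p = 0.0433) were called in edgeR's test, with 34.8% of all genes.

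Without the 4 libraries set apart, 7 members were called higher and 6 lower, against 33.8% of all genes, but they were not the same ones. Hmgcs1 (log2 fold change -0.44, adjusted p = 0.0834, edgeR) and Npc2 (0.66, adjusted p = 0.0547) were then not called. Abcg1 was called lower (-0.59, adjusted p = 0.00259, edgeR), and Fdps (0.52, adjusted p = 0.0438) and Mvk (0.36, adjusted p = 0.0454) higher. With the replicate number as a block, 31.8% of all genes were called, Hmgcs1 (adjusted p = 0.0782, edgeR) and Npc2 (0.0621) were not, and Abcg1 (-0.52, adjusted p = 0.0166) and Mvk (0.38, adjusted p = 0.0459) were. With no low-count filter, Hmgcs1 (adjusted p = 0.0541, edgeR) and Npc2 (0.0545) were not called, and with the compared groups only Cyp46a1 was not (0.0643).

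The calls were also set against gene length. Length here is the one implied by the deposited FPKM, and not the span between the coordinates given above. The 6 genes that rose had a median length of 3.32 kb (1.71 to 5.59 kb). The 6 that fell had 4.98 kb (3.47 to 10.4 kb) and the 19 others 4.42 kb (2.31 to 17.7 kb), so the ranges overlapped. With a trend of counts against length taken out of each library, 8 members were higher and 3 lower, and 27.7% of all genes were called. The log2 fold change of Mvd went from 0.67 to 0.42, of Hmgcs1 from -0.53 to -0.45, of Sqle from -0.57 to -0.42 (adjusted p = 0.0508, edgeR) and of Abca1 from -0.96 to -0.59, and these were then not called. Lrp1 went from 0.10 to 0.61, Lss from 0.05 to 0.44 and Scap from 0.12 to 0.37, and these were called higher. The part of length in the calls was not tested further.

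**Figure D3:**
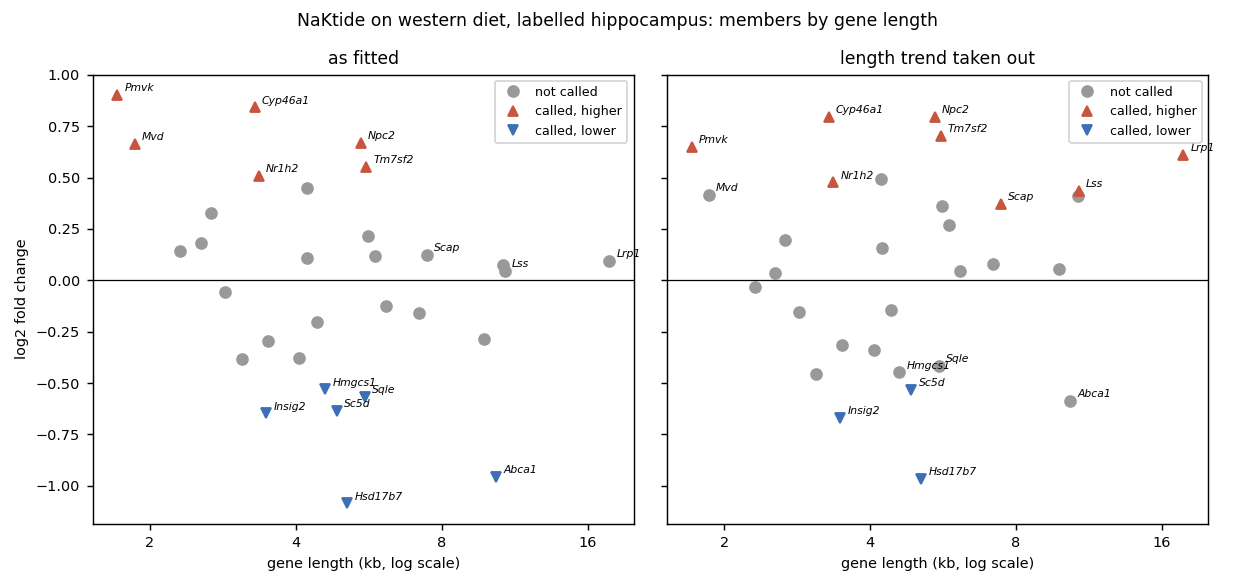
Log2 fold change (y axis) of the 31 members for NaKtide on western diet in hippocampus against gene length (x axis, log scale). Length is in kb, as implied by the FPKM. Values are as fitted (left) and with the length trend taken out (right). The short Mvd and the long Abca1 are called on the left and not on the right.

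Of the 85 markers of cell types and tissues tested in this comparison, 32 were called, or 37.6%, near the 33.7% of all genes. Summed neuron markers ran from 6809 to 7720 CPM in western and from 4685 to 6764 CPM in western NaKtide libraries, with 4 of 10 called lower. Microglia markers ran from 338 to 540 and from 533 to 754 CPM, with 6 of 10 higher, and blood markers from 240 to 1245 and from 737 to 3462 CPM, with 4 of 5 higher. Oligodendrocyte markers ran from 3675 to 10850 and from 2324 to 22577 CPM, with 1 of 10 higher, and astrocyte markers from 3287 to 4842 and from 2902 to 4585 CPM, with 1 higher and 4 lower of 10. Hippocampus markers ran from 300 to 595 and from 87 to 310 CPM, with 4 of 7 lower, and striatum markers from 215 to 608 and from 310 to 5519 CPM, with 6 of 10 higher. Of 10 endothelial and 8 choroid plexus markers none was called, and of 5 cerebellum markers 2 were lower. No marker was at 0 in all libraries of a group. The part of tissue content in the results for these genes was not tested.

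Related genes outside the 31, from a list of 43 of which 41 were tested, gave 3 higher and 11 lower calls in the same comparison, or 34.1%, near the 33.7% of all genes. By role, 1 of 8 further synthesis genes, 5 of 12 regulators and 8 of 21 transport and turnover genes were called. The 4 with the smallest p all fell. The log2 fold change was -0.93 for Nceh1, a cholesteryl ester hydrolase (SE 0.15, adjusted p = 0.00117, edgeR), and -1.24 for Mbtps2, the protease that makes the second cut of SREBP (SE 0.20, adjusted p = 0.00123, edgeR). For the ubiquitin ligase Rnf139 it was -0.83 (SE 0.19), and for Erlin2, which acts in the degradation of HMG-CoA reductase, -0.57 (SE 0.16).

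NaKtide on control diet in hippocampus gave no called member by edgeR or DESeq2, and edgeR called 0% of all genes. At an unadjusted p under 0.05 edgeR had 4 members, or 12.9%, against 16.5% of all genes. Abca1 had the lowest log2 fold change, -1.33. Its control libraries ran from 4.69 through 8.54 to 19.3 CPM, and its control NaKtide libraries from 2.15 through 5.02 to 5.78 CPM, and the ranges overlapped.

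The western diet without NaKtide in hippocampus gave no called member by either tool, with 0% of all genes called by edgeR and 5.72% by DESeq2. At an unadjusted p under 0.05 edgeR had 6 members, or 19.4%, against 24.6% of all genes. This comparison shares its western libraries with that of NaKtide on western diet, so the values stand side by side only. Log2 fold changes for the diet were 0.69 for Hsd17b7, 0.65 for Abca1, 0.37 for Sc5d, 0.36 for Insig2, -0.63 for Cyp46a1, -0.58 for Pmvk and -0.40 for Nr1h2. Sc5d was the one member whose groups did not overlap, higher on the western diet, against 3.08% of all genes. Without the libraries set apart (here control 5 and 6 and western NaKtide 6), 6 members were called and 13.4% of all genes. Abca1 (log2 fold change 1.25), Insig2 (0.60) and Sc5d (0.54) were higher, and Mvd (-0.53), Nr1h2 (-0.47) and Pmvk (-0.71) lower.

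With NaKtide present, the diet gave no called member in hippocampus by edgeR or DESeq2, with 0% of all genes called by edgeR and 0.155% by DESeq2. By edgeR 12.9% of members and 10.7% of all genes had an unadjusted p under 0.05. Abca1 had the highest log2 fold change, 1.02. Dhcr7 was the one member whose groups did not overlap, at 42.4, 50.1, 40, 46.2 and 40.6 CPM in control NaKtide and 35.1 to 39.7 CPM in western NaKtide libraries, against 0.667% of all genes. The interaction of diet and NaKtide gave no called member by these tools, with 0% of all genes called by edgeR and 1.04% by DESeq2. By edgeR 12.9% of members and 14.6% of all genes had an unadjusted p under 0.05.

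In cerebellum no member was called in any comparison by edgeR. NaKtide on western diet gave 1 member at an unadjusted p under 0.05, or 3.23% against 4.16% of all genes, and 0% of all genes were called, with log2 fold changes from -0.36 to 0.35. NaKtide on control diet gave 6 at an unadjusted p under 0.05, or 19.4% against 29.5% of all genes, and 0.00612% of all genes were called, with 1.19 for Abca1 and -0.80 for Pmvk. DESeq2 called Pmvk there, with 6.68% of all genes, and no member in the other cerebellum comparisons. Without cerebellum control 5, edgeR called Abca1 (1.31) higher and Pmvk (-0.94), Npc2 (-0.86), Npc1 (-0.68) and Dhcr7 (-0.46) lower, and 26.5% of all genes, and without cerebellum western NaKtide 3 it called Pmvk (-0.81) and 8.38% of all genes. The diet without NaKtide gave 5 members at an unadjusted p under 0.05, or 16.1% against 19.5% of all genes, the diet with NaKtide 4, or 12.9% against 2.42%, and the interaction 8, or 25.8% against 17.4%. EdgeR called 0.00612%, 0% and 0.00612% of all genes in these 3.

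**Figure D4:**
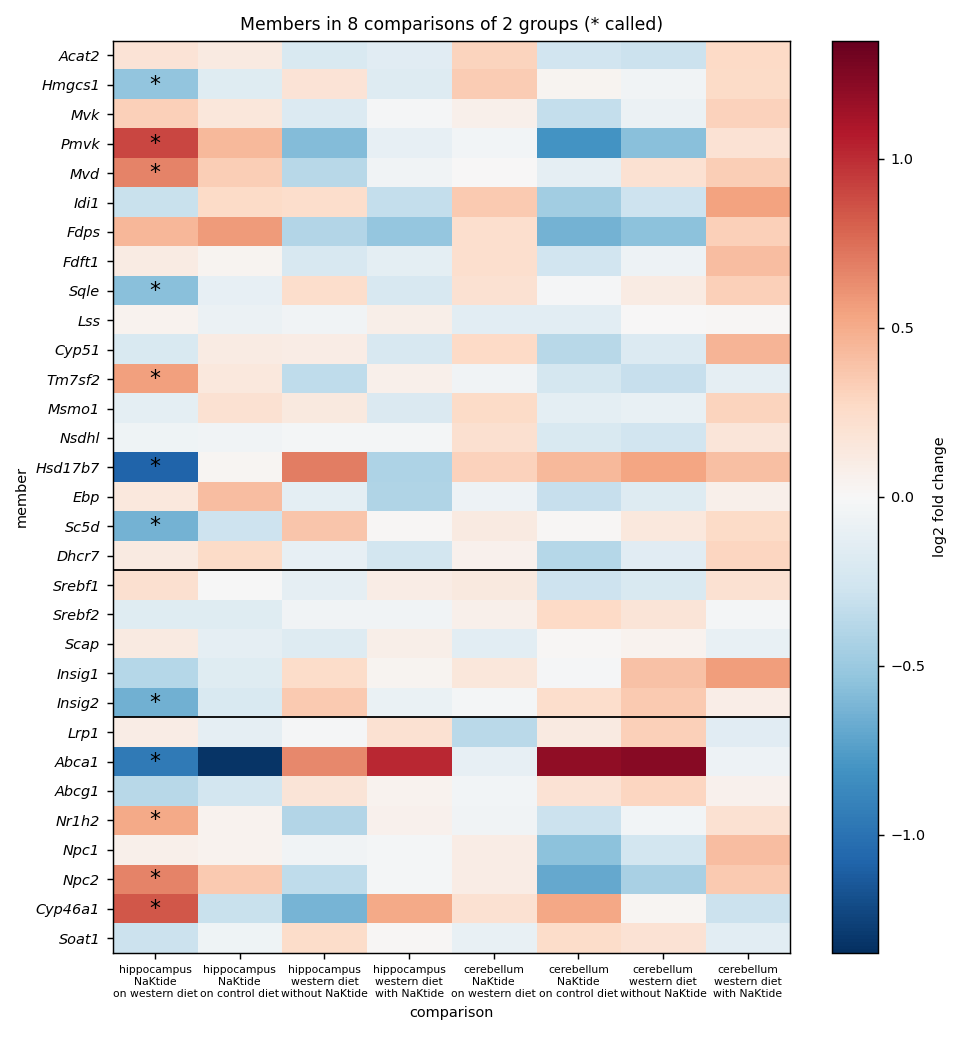
Log2 fold change (colour) of the 31 members (y axis) in 8 comparisons of 2 groups (x axis), some of which share libraries; asterisks mark calls. Calls stand in the column of NaKtide on western diet in hippocampus, and Abca1 spans from -1.33 to 1.23 across the 8.

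The NaKtide difference on western diet was itself compared between labels. Of the 31 members 2 were called, with 8.84% of all genes, and 12 had an unadjusted p under 0.05, or 38.7% against 29.7% of all genes. For Hsd17b7 the log2 fold change in hippocampus minus that in cerebellum was -1.37 (SE 0.38, adjusted p = 0.0248, edgeR). Its cerebellum libraries held 9.15, 12.3, 8.92, 13.3 and 13.4 CPM on western diet and 13.6, 23.8, 5.41, 15.9 and 11.8 CPM with NaKtide. For Sc5d this difference was -0.75 (SE 0.22, adjusted p = 0.0315, edgeR). Its cerebellum libraries held 45.3, 48.1, 47.2, 64 and 51.2 CPM, and 56.8, 70.6, 39.3, 58.6 and 54.1 CPM with NaKtide, and these ranges overlapped. Leaving out 1 library moved the count of called members between 0 and 8: it was 0 without cerebellum western NaKtide 4 or cerebellum western 1, and 8 without cerebellum western NaKtide 3. The share of all genes called was 2.4%, 3.99% and 23.6% in these 3 fits, and ran from 2.4% to 23.6% over all 42 libraries left out. The count was 1 without cerebellum western NaKtide 1 or 2, cerebellum western 3, hippocampus western NaKtide 1 or hippocampus western 4, and 4 to 6 without cerebellum western 4, hippocampus control 4, hippocampus western NaKtide 2 or 6, or hippocampus western 5. Without the 4 libraries set apart, Insig2 was also called (-0.69, adjusted p = 0.0407, edgeR), with 7.68% of all genes. DESeq2 called 4 members and 11.4% of all genes, the length trend 5 and 9.74%, and the replicate block 7 and 12.7%.

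Between the region labels no member was called by edgeR or DESeq2, with 0.0468% of all genes called by edgeR and 0.485% by DESeq2. By edgeR 8 members had an unadjusted p under 0.05, or 25.8% against 12.8% of all genes. The log2 fold change of hippocampus over cerebellum was below 0 for 24 of 31 members and ran from -0.29 to 0.24. These were all 18 synthesis enzymes, 2 of 5 SREBP genes and 4 of 8 uptake and efflux genes. The median was -0.12 over the members and -0.0075 over all genes.

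Synthesis was set against uptake and efflux as the mean log2(CPM + 1) of the 18 enzymes minus that of the 8 genes, as a description. Group means were -0.78 in hippocampus control, -0.48 in control NaKtide, -0.77 in western and -0.83 in western NaKtide. In cerebellum they were -0.37, -0.68, -0.64 and -0.47 in the same order. The ranges of libraries overlapped widely: hippocampus western NaKtide spanned -1.39 to -0.49 and cerebellum control -0.94 to 0.07. The -1.39 was hippocampus western NaKtide 6, one of the libraries set apart, and the next lowest of its group stood at -0.96. The means were not computed again without the libraries set apart. In hippocampus the control NaKtide group, from -0.59 to -0.29, lay above all western libraries, from -0.88 to -0.62. These groups differ in both diet and NaKtide, which cannot be told apart here, and the pair is none of the comparisons above. Both overlapped hippocampus control, from -0.95 to -0.49.

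**Figure D5:**
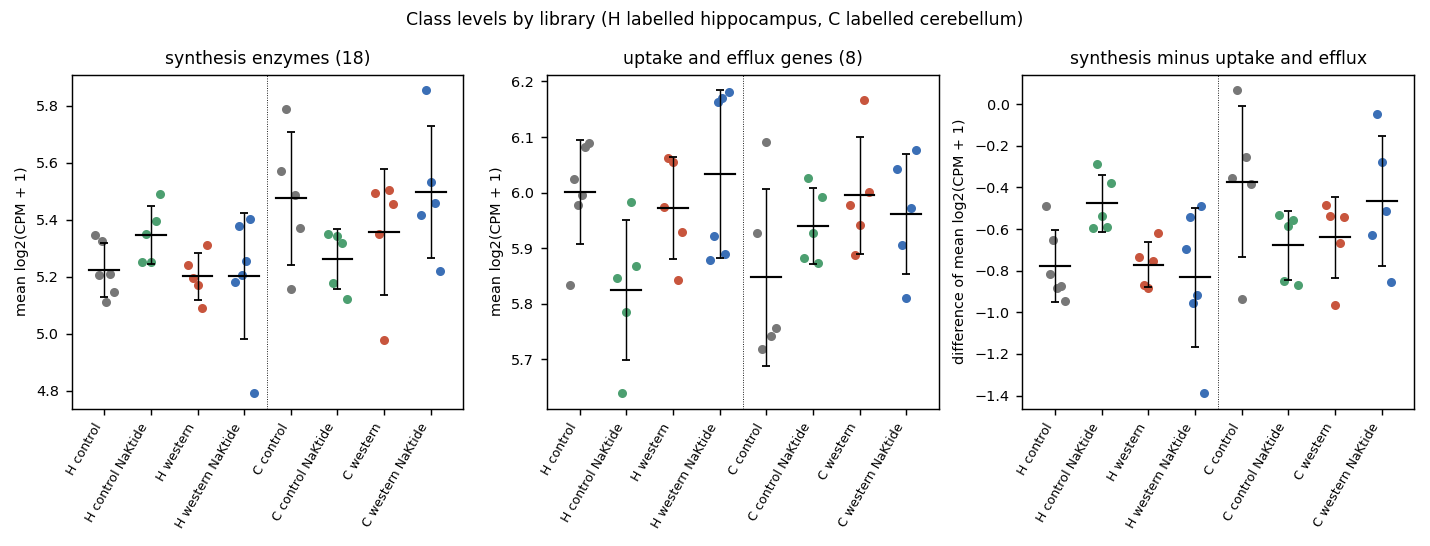
Mean log2(CPM + 1) of the synthesis enzymes, of the uptake and efflux genes, and their difference (y axes) in each library of the 8 groups (x axis); lines are means and bars SD. Hippocampus western NaKtide 6 is the lowest point of the difference, at -1.39.

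About their group means, most pairs of synthesis enzymes varied in the same direction. The median Pearson correlation over the 42 libraries was 0.35 for 153 pairs of enzymes, with 128 above 0. It was -0.07 for 144 pairs of an enzyme with an uptake or efflux gene and -0.10 for 28 pairs within the latter class. Idi1 with Cyp51 (0.84) and Hmgcs1 with Sqle (0.82) were the closest pairs. The libraries share depth and tissue content across all genes, so these are descriptions.

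Levels between genes were compared per length, by the deposited FPKM, as the median over 42 libraries. Cyp46a1 stood highest at 62.1 FPKM, followed by Pmvk at 35.7, Hmgcs1 at 29.1 and Fdft1 at 27.0 FPKM. Lowest were Soat1 at 1.96, Hsd17b7 at 1.90 and Abca1 at 0.913 FPKM. Abca1 had the widest range of group means, from 0.409 FPKM in hippocampus control NaKtide to 1.65 FPKM in hippocampus western, a ratio of 4.03, followed by Pmvk with 2.24. Scap varied least, with a ratio of 1.14.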

How the data were processed

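The 42 libraries were grouped by their labels, and the 31 members and all gene lists were chosen with earlier results of these data known. Per the submitters' processing notes, reads were trimmed with Trimmomatic 0.38 and aligned with HISAT2 2.1.0 to GRCm38, and DESeq2 1.20.0 was used. The sources used here name no counter or annotation. Deposited were raw counts, a signal (normalized counts) that the authors made with 1 size factor per library, and FPKM that the authors computed from those normalized counts. Tests used the raw counts as deposited.

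The 4 groups of each label were fitted together with edgeR 4.0.16 in R 4.3.3 (TMM, filterByExpr, quasi-likelihood F test), and all 8 groups for contrasts between labels. A gene was called at an adjusted p (Benjamini-Hochberg, all genes) under 0.05. The SE was derived from the log2 fold change and its F statistic. CPM used TMM factors over all 42 libraries. Gene length came from the ratio of normalized counts to FPKM, scaled by the geometric mean of the library totals. All members were named, with library values for the called ones, and of related genes the 4 with the smallest p. A simulation with 200 changed genes was run for NaKtide on western diet in each label. In hippocampus 92% of 4-fold and 50% of 2-fold changes were recovered, and 5.33% of calls were false. In cerebellum these were 90%, 50% and 6.04%. A member that was not called may therefore still have changed, by 2-fold or by more. The simulation changed 200 genes, while 5542 were called for NaKtide on western diet in hippocampus. Its rates may therefore not hold for these data. Alternatives were DESeq2 1.42.0, its size factors in edgeR, no filter, compared groups only, a replicate block, a length trend, hippocampus control 5 and 6 summed, 4 libraries left out, and each library left out in turn. Within a label, same-numbered libraries of different groups had a median correlation of -0.10 in hippocampus and -0.06 in cerebellum. Numbers were not taken as pairs in the main fit. Whether a hippocampus and a cerebellum library came from the same mouse was not examined.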

Additional observations from a re-analysis of the deposited data

Results flagged for a closer look

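Of 280 groups of values screened for a library far from the rest of its group, 21 had one. An assumed rate of 1 in 20 gives 14. The groups of values share libraries and include class means of the same genes, so 21 against 14 is no test of chance. Cerebellum western 3 was lowest for Hmgcs1 (63.7 CPM), Fdft1 (61.8 CPM), Sqle (21.3 CPM) and the mean of the synthesis class (4.98 log2), and highest for Ebp (44.6 CPM) and Abcg1 (71 CPM). Its summed cerebellum markers stood at 3345 CPM, against 15.5 to 52.2 CPM in the other cerebellum western libraries, and their part in these values was not tested. Cerebellum western NaKtide 2 was highest for Cyp51 (120 CPM), Nsdhl (42.4 CPM) and Npc1 (112 CPM) and lowest for Scap (59.6 CPM) and Cyp46a1 (67.4 CPM). Hippocampus western NaKtide 6 was highest for Abcg1 (71.9 CPM) and lowest for the synthesis mean (4.79 log2). Hippocampus western 5 was highest for Acat2 (67.3 CPM) and lowest for Hsd17b7 (8.56 CPM), and hippocampus western 2 was highest for Soat1 (26.5 CPM). Hippocampus control NaKtide 4 was highest for Ebp (33.4 CPM) and Npc2 (175 CPM). Cerebellum control NaKtide 1 was highest for Srebf1 (74.7 CPM) and the SREBP class mean (6.20 log2), and cerebellum control NaKtide 5 lowest for Fdps (18.5 CPM).

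The NaKtide difference on western diet differed between the labels, by a test of the difference itself, for Hsd17b7 (-1.37 on the log2 scale, hippocampus minus cerebellum) and Sc5d (-0.75). These 2 of 31 members are 6.45%, below the 8.84% of all genes called in the same test. Neither was called without cerebellum western NaKtide 4 or cerebellum western 1. Of the 42 fits that left out 1 library, Hsd17b7 lost its call in 2 and Sc5d in 7.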

How the results depend on the processing

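For NaKtide on western diet in hippocampus, 12 members and 33.7% of all genes were called. Without 1 library the count ran from 8 to 13, with 22.9% to 36.7% of all genes called. It stayed within 1.5 times under the other alternatives. The share of all genes ran there from 14% with no low-count filter to 33.8% without the 4 libraries set apart. No called member changed direction under any of these. For the diet without NaKtide in hippocampus, 6 members were called without the 4 libraries set apart (13.4% of all genes), against 0. For NaKtide on control diet in cerebellum, DESeq2 called 1 (6.68% of all genes). Leaving out 1 library gave 0 to 5, with 0.00602% to 26.5% of all genes, and the 5 came with the 26.5%. For the difference between labels, against 2 called members, DESeq2 gave 4 (11.4% of all genes), the length trend 5 (9.74%) and the replicate block 7 (12.7%). Leaving out 1 library gave 0 to 8 there, with 2.4% to 23.6% of all genes. Within a label, correlations of same-numbered libraries of different groups ran from -0.51 to 0.45 in hippocampus and from -0.50 to 0.66 in cerebellum. They cannot show whether a hippocampus and a cerebellum library came from the same mouse. Contrasts between labels treated all libraries as independent. The causes of the changes in these counts were not tested.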
